A study of Homo sapiens with 8 samples.

Results

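The UPF and SMG genes encode the proteins that carry out nonsense-mediated mRNA decay (NMD). Rows of the transcript expression table were taken by gene name for UPF1, UPF2, UPF3A, UPF3B, SMG1, SMG5, SMG6, SMG8 and SMG9, which gave 91 of 134605 transcripts and 9 of 33711 genes. The level of a gene is the summed FPKM of all its transcripts (FPKM, a fragment count divided by the length of the transcript and the size of the library).

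NMD removes mRNAs whose translation ends too early and also sets the level of many ordinary mRNAs. When a ribosome stops upstream of a protein complex left at an exon junction, the RNA helicase UPF1 meets UPF2 and UPF3A or UPF3B, and the kinase SMG1, held in check by SMG8 and SMG9, phosphorylates UPF1. Phosphorylated UPF1 is then bound by the endonuclease SMG6 and by the adaptor SMG5, and the mRNA is broken down.

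The data came from HCT116, a human colorectal cancer cell line, transfected with siRNA against YTHDF3 (si-YTHDF3) or with control siRNA (NC). YTHDF3 is a cytoplasmic protein that reads N6-methyladenosine (m6A) in RNA. Each condition had 2 input RNA libraries and 2 from an m6A immunoprecipitation, and expression was given for the 4 input libraries. The study lists a pair of different siRNAs against YTHDF3, which are numbered as the si-YTHDF3 libraries are. The NC libraries are numbered in the same way. The labels do not say whether the number names the siRNA that a si-YTHDF3 library received, nor whether the libraries of a group came from separate cultures. The p-values therefore measure how far these libraries differ, which may be technical only or, within si-YTHDF3, a difference between siRNAs. In RNA from many cells, fewer cells that hold a transcript and less of it per cell cannot be told apart.

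The FPKM of a library summed to between 371121 and 383303, with 14357 to 14483 genes at 1 FPKM or more. Read numbers cannot be recovered from FPKM, so the depth behind each value is unknown. The targeted gene YTHDF3 had 2.53 and 3.25 FPKM in si-YTHDF3, against 25.9 and 12.0 FPKM in NC. The groups did not overlap, and the log2 fold change was -2.27 (95% interval -3.14 to -1.40) which did not pass the test over all genes (limma adjusted p = 0.135). Of the colon epithelial markers EPCAM, KRT8, KRT18, KRT19 and CDH1 were expressed, EPCAM at 127 to 155 FPKM, while VIL1 and LGALS4 were at or near 0 in every library. Leukocyte markers summed to 3.51 to 4.79 FPKM, and fibroblast and endothelial markers to 12.2 to 16.1 FPKM, of which COL1A1 alone gave 11.9 to 15.8 FPKM. Their part in the values of the UPF and SMG genes was not tested.

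Several of these genes are transcribed from more than 1 start site, and UPF2 and SMG6 had transcripts with different starts whose levels differed widely between libraries, so the sequences at these starts are given first. The windows are RefSeq's for GRCh38.p14 and run from 250 bases before to 50 bases after an annotated start, 5′ to 3′ on the minus strand. Capitals mark the letters CCAAT (the CCAAT box), GGGCGG (the GC box) and TATAAA (the TATA box) on either strand, and matches that overlap each other were counted separately. RefSeq windows were matched by symbol for 8 of the 9 genes, 15 windows in all, and SMG8 was not among them.

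UPF2 at chr10:12043121-12043420, whose start at 12043170 is also that of ENST00000397053: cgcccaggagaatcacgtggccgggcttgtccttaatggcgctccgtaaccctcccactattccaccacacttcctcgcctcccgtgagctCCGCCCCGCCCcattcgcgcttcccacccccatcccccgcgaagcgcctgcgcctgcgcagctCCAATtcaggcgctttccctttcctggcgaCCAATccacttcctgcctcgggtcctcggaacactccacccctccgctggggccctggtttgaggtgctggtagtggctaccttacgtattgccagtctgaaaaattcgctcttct
UPF2 at chr10:12042760-12043059, whose start lies 25 bases from that of ENST00000357604: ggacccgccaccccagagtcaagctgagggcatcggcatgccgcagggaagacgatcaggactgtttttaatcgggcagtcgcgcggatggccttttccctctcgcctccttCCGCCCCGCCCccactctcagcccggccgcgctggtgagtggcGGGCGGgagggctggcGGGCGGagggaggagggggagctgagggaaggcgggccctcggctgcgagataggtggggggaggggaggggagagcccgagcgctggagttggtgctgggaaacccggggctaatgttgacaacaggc
SMG6 at chr17:2303736-2304035, whose start lies 14 bases from that of ENST00000263073: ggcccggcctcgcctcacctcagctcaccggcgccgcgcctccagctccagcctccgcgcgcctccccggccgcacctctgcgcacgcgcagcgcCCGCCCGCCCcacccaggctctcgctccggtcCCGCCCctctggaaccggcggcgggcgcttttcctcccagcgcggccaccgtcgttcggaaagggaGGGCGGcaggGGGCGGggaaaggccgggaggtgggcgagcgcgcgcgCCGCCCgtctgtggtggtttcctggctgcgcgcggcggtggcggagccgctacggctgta
SMG6 at chr17:2266136-2266435, whose start lies 14 bases from that of ENST00000354901: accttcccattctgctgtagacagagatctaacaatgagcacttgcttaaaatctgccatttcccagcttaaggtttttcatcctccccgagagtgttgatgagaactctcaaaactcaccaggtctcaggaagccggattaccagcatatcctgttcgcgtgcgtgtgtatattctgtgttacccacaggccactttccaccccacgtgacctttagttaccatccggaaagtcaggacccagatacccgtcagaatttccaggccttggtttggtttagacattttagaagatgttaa
SMG6 at chr17:2088712-2089011, whose start at 2088761 is also that of ENST00000573166: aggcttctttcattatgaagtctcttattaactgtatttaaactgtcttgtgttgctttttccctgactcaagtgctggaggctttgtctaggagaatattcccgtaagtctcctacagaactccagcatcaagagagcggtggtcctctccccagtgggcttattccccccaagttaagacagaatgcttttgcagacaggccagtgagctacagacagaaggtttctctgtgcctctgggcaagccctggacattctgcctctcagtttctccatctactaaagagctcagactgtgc

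The upstream UPF2 window held 2 CCAAT boxes, 2 GC boxes and 23 CG dinucleotides, and the downstream one held 4 GC boxes, 24 CG dinucleotides and no CCAAT box. The window at the first SMG6 start was 78.3% G and C, with 6 GC boxes and 46 CG dinucleotides. The window at the inner start of ENST00000354901 was 46.3% G and C with 8 CG dinucleotides, the one at ENST00000573166 was 47.3% G and C with 2, and neither held any of the 3 motifs. Over all 35116 windows of RefSeq, 34.6% held a CCAAT box, 45.0% a GC box and 11.5% a TATA box, and the median window had 14 CG dinucleotides. A match is a run of letters and says nothing of what binds there.

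All 9 genes were expressed in every library, and no gene-level difference between si-YTHDF3 and NC passed the test. Of the 9 genes, 0 had a limma adjusted p under 0.05 and 0 had an unadjusted p under 0.05, where 0.0277% and 14.8% of all 14457 genes tested did, 8.29% higher and 6.53% lower in si-YTHDF3. The log2 fold change (si-YTHDF3 over NC, on FPKM + 1, which understates the change of low genes) was above 0 for 3 genes and below 0 for 6, with a median of -0.07 against 0.01 over all genes. The groups did not overlap for 1 gene of 9, SMG1, against 49.0% of all genes. For 8 of the 9 the larger difference within a group exceeded the difference between the group means, against 63.5% of all genes. The 95% interval of the fold set the size of change that could be seen, and it differed by gene. It was widest for SMG8, 0.399 to 1.38, next for UPF3B, 0.558 to 1.31, and narrowest for SMG1, 0.695 to 1.07.

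**Figure D1:**
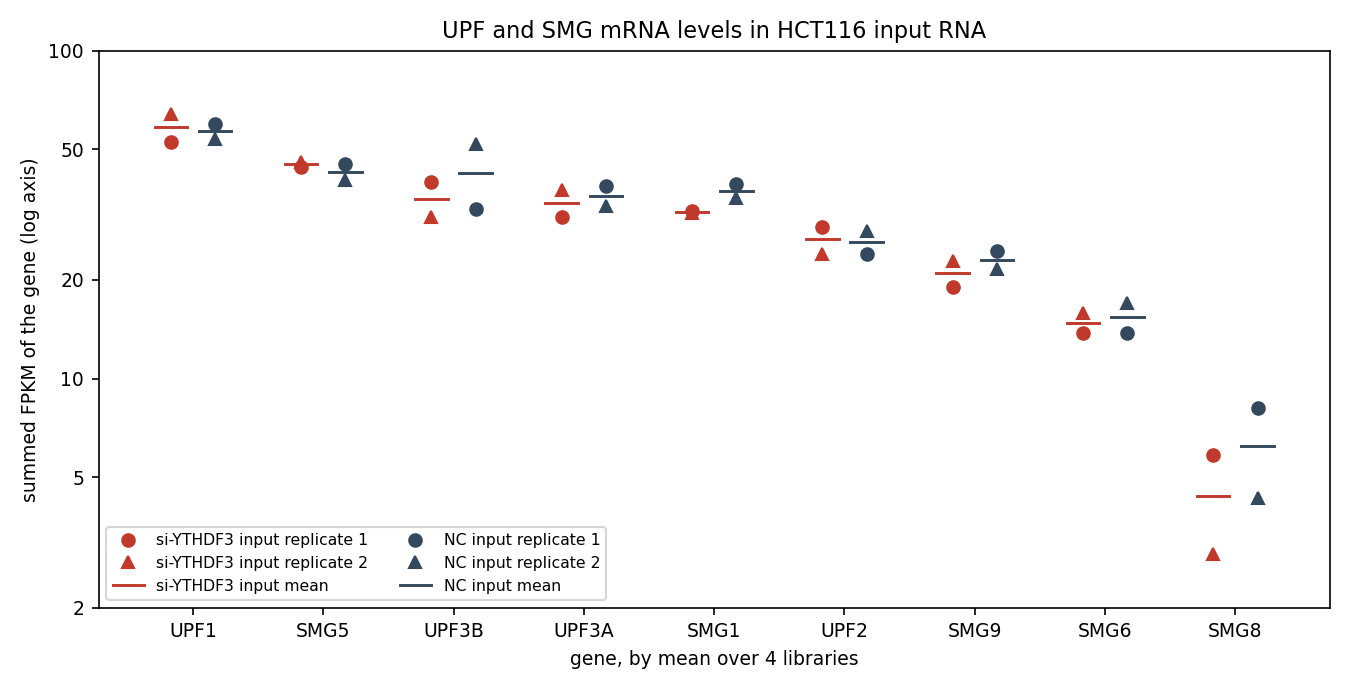
Summed FPKM of each gene on a log axis in the si-YTHDF3 input libraries (red) and the NC input libraries (dark blue), replicate 1 as circles and replicate 2 as triangles, with the group mean as a bar (n = 2 each). The genes spread from SMG8, at 2.92 to 8.12 FPKM, to UPF1, at 52.8 to 64.0 FPKM, and only for SMG1 do the 2 colours separate.

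By mean over the 4 libraries the order of the levels was UPF1, SMG5, UPF3B, UPF3A, SMG1, UPF2, SMG9, SMG6 and SMG8. UPF1 was above SMG5 in every library, and SMG1 above UPF2, SMG9 above SMG6 and SMG6 above SMG8 with ranges that did not overlap. The other neighbours, SMG5 with UPF3B, UPF3B with UPF3A, UPF3A with SMG1 and UPF2 with SMG9, had overlapping ranges. The place of SMG1 is uncertain, since it can share reads with its copies given below.

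UPF1, the helicase on which the pathway is built, lies at chr19:18831938-18868236 on the plus strand of GRCh38, with 13 transcripts. Its summed level was 52.8 and 64.0 FPKM in si-YTHDF3 and 59.8 and 53.7 FPKM in NC. The si-YTHDF3 libraries lay on both sides of the NC libraries. The means were 58.4 ± 7.93 FPKM and 56.8 ± 4.29 FPKM in NC (SD, n = 2 each), a log2 fold change of 0.03 (SE 0.15, 95% interval -0.33 to 0.40, limma adjusted p = 0.932).

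Less of the UPF1 level than for most genes came from transcripts annotated as protein coding. The highest single UPF1 entry was ENST00000601689, a 561-base transcript annotated as a retained intron, with 19.7 and 25.1 FPKM in si-YTHDF3 and 21.2 and 21.3 FPKM in NC. The coding transcript ENST00000599848 had 11.7 and 18.7 FPKM in si-YTHDF3 and 15.2 and 18.3 FPKM in NC, and ENST00000262803 had 13.2 and 11.0 FPKM in si-YTHDF3 and 12.3 and 8.04 FPKM in NC. The groups overlapped for all 3. Retained-intron transcripts made up 47.6% of the UPF1 FPKM and protein-coding ones 47.0%, a coding share that 16.1% of 11847 expressed coding genes fell below.

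UPF2, the scaffold that joins UPF1 to UPF3A or UPF3B (chr10:11920022-12043170, minus strand, 4 transcripts), had 29.1 and 24.0 FPKM in si-YTHDF3 and 23.9 and 28.2 FPKM in NC. Both groups spanned nearly the same range, and the log2 fold change was 0.02 (SE 0.16, 95% interval -0.37 to 0.42, limma adjusted p = 0.958).

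The even UPF2 sum hid transcript values that were far from even. ENST00000357604 and ENST00000397053 have 22 exons each, at 5193 and 5369 bases, and end at 11920022 and 11920023. How well reads can be divided between transcripts so alike was not tested. ENST00000357604, from the downstream start, had 8.55 and 5.98 FPKM in si-YTHDF3 and 7.87 and 24.3 FPKM in NC, so that NC replicate 2 stood apart from the other 3 libraries. ENST00000397053, from the upstream start, had 12.8 and 13.2 FPKM in si-YTHDF3 and 9.67 and 1.70 FPKM in NC. Both si-YTHDF3 libraries were above both NC libraries for it, with a log2 fold change of 1.38 (95% interval -0.83 to 3.58, limma adjusted p = 0.780), and again NC replicate 2 was the outlying library. ENST00000356352 had 7.01 and 4.24 FPKM in si-YTHDF3 and 6.06 and 2.21 FPKM in NC. The 3 coding transcripts summed to 28.3 and 23.4 FPKM in si-YTHDF3 and 23.6 and 28.2 FPKM in NC, so the outlying values of NC replicate 2 offset each other.

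UPF3A and UPF3B are paralogs that link UPF2 to the exon junction complex, UPF3B being the stronger activator of decay. UPF3B (chrX:119805311-119852998, minus strand, 5 transcripts) had 39.7 and 31.1 FPKM in si-YTHDF3 and 32.9 and 51.8 FPKM in NC. NC replicate 2 was the highest library, the other 3 were close together, and the log2 fold change was -0.23 (SE 0.25, 95% interval -0.84 to 0.39, limma adjusted p = 0.683). UPF3A (chr13:114281584-114305817, plus strand, 12 transcripts) had 31.2 and 37.6 FPKM in si-YTHDF3 and 38.6 and 33.7 FPKM in NC, which overlapped, with a log2 fold change of -0.07 (SE 0.15, 95% interval -0.45 to 0.31, limma adjusted p = 0.848).

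The paralogs had similar sums but different make-ups. Nearly all of the UPF3B level was protein coding, 98.4%, and ENST00000345865 carried most of it with 32.7 and 26.8 FPKM in si-YTHDF3 and 27.9 and 47.3 FPKM in NC. The smaller coding transcripts ENST00000276201, with 5.11 and 2.56 FPKM in si-YTHDF3 and 1.35 and 2.08 FPKM in NC, and ENST00000636792, with 1.65 and 1.17 FPKM in si-YTHDF3 and 0.961 and 1.01 FPKM in NC, were higher in both si-YTHDF3 libraries (limma adjusted p = 0.775 and 0.790). Of the UPF3A level only 14.9% was protein coding, and 2.27% of expressed coding genes had a lower share. Transcripts annotated as processed, which have no open reading frame, made up 74.1% of it.

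Among these processed UPF3A transcripts ENST00000475218 had 8.20 and 20.4 FPKM in si-YTHDF3 and 20.3 and 9.36 FPKM in NC, high in si-YTHDF3 replicate 2 and NC replicate 1. ENST00000480362 had 6.09 and 4.23 FPKM in si-YTHDF3 and 2.95 and 5.48 FPKM in NC, and ENST00000479712 had 3.90 and 2.69 FPKM in si-YTHDF3 and 3.49 and 4.99 FPKM in NC. The groups overlapped for all 3. The coding sum of UPF3A was 5.13 and 4.13 FPKM in si-YTHDF3 and 5.14 and 6.60 FPKM in NC. By coding transcripts UPF3B thus stood at 30.5 to 50.4 FPKM and UPF3A at 4.13 to 6.60 FPKM. How well reads can be divided between the coding and the processed transcripts of UPF3A was not tested, so its coding share and coding sum are uncertain.

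**Figure D2:**
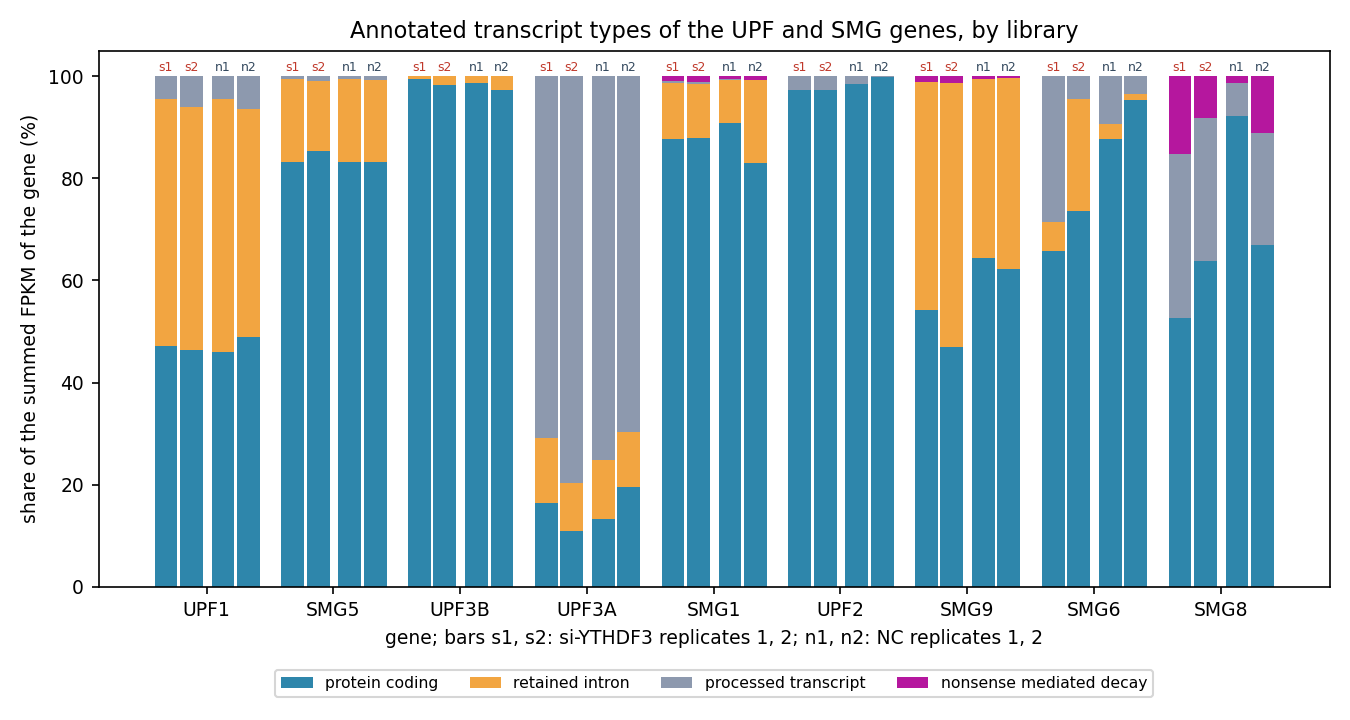
Share of the summed FPKM of each gene (percent, stacked to 100) by annotated transcript type, with the bars s1 and s2 for the si-YTHDF3 input libraries and n1 and n2 for the NC input libraries. UPF3A is mostly processed transcript and UPF1 nearly evenly coding and retained intron in every library.

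SMG1, the kinase that phosphorylates UPF1 (chr16:18804853-18926454, minus strand, 17 transcripts), was the gene with the lowest unadjusted p of the 9. It had 32.4 and 31.9 FPKM in si-YTHDF3 and 39.2 and 35.7 FPKM in NC. Both si-YTHDF3 libraries were below both NC libraries, with means of 32.1 ± 0.350 FPKM and 37.4 ± 2.49 FPKM in NC (SD, n = 2 each). The log2 fold change was -0.21 (SE 0.13, 95% interval -0.52 to 0.10), with an unadjusted p of 0.146 and a limma adjusted p of 0.463. Near-identical copies of part of SMG1 lie elsewhere on chromosome 16 and can share reads with it, so its level is uncertain. Of these pseudogenes SMG1P1 had 18.7 and 15.2 FPKM in si-YTHDF3 and 18.5 and 18.1 FPKM in NC. SMG1P3 had 16.5 and 15.5 FPKM in si-YTHDF3 and 18.1 and 17.1 FPKM in NC. Means over the 4 libraries were 7.41 FPKM for SMG1P5, 6.65 for SMG1P4, 4.47 for SMG1P7, 4.16 for SMG1P2 and 1.57 for SMG1P6. The log2 fold change was above 0 for SMG1P2 (0.22) and SMG1P7 (0.06) and below 0 for the other copies. How many reads of SMG1 and its copies were exchanged was not tested.

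The SMG1 level was divided between a pair of long coding transcripts in a way that did not follow the groups. ENST00000446231, with 63 exons and 16115 bases, had 24.8 and 7.75 FPKM in si-YTHDF3 and 8.82 and 26.2 FPKM in NC. ENST00000565324, with 61 exons and 12465 bases, had 1.01 and 17.3 FPKM in si-YTHDF3 and 23.0 and 1.07 FPKM in NC. One was high where the other was low, in si-YTHDF3 replicate 1 with NC replicate 2 and in si-YTHDF3 replicate 2 with NC replicate 1. UPF3A ENST00000475218 was high in this second pair of libraries. Their sum was 25.8 and 25.0 FPKM in si-YTHDF3 and 31.8 and 27.3 FPKM in NC, far steadier than either. The retained-intron transcript ENST00000561940 had 1.50 and 1.92 FPKM in si-YTHDF3 and 1.16 and 2.14 FPKM in NC.

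SMG8 and SMG9 form a complex with SMG1 that restrains the kinase. SMG8 (chr17:59209867-59215247, plus strand, 5 transcripts) was the lowest of the 9 genes and had the largest SE of the log2 fold change, with 5.83 and 2.92 FPKM in si-YTHDF3 and 8.12 and 4.33 FPKM in NC. In each group replicate 1 was the higher library, and the groups overlapped. The log2 fold change of -0.43 (SE 0.36, 95% interval -1.32 to 0.46, limma adjusted p = 0.589) was the largest of the 9 in size. Of its transcripts the difference was widest for ENST00000300917, which had 0.849 and 1.09 FPKM in si-YTHDF3 and 6.58 and 1.50 FPKM in NC, a log2 fold change of -1.15 (95% interval -2.98 to 0.69, limma adjusted p = 0.780) that shrank to -0.34 without NC replicate 1. ENST00000582469 had 2.18 and 0.738 FPKM in si-YTHDF3 and 0.313 and 1.36 FPKM in NC, and ENST00000580498 had 1.87 and 0.817 FPKM in si-YTHDF3 and 0.522 and 0.949 FPKM in NC, with overlapping groups.

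SMG9 (chr19:43727992-43754990, minus strand, 11 transcripts) had 19.1 and 22.9 FPKM in si-YTHDF3 and 24.5 and 21.6 FPKM in NC, which overlapped, with a log2 fold change of -0.13 (SE 0.15, 95% interval -0.51 to 0.25, limma adjusted p = 0.702). Its coding transcripts alone differed more, which rests on the short ENST00000602222 given below. They summed to 10.3 and 10.7 FPKM in si-YTHDF3 and 15.7 and 13.5 FPKM in NC, and the groups did not overlap. The means were 10.5 ± 0.282 FPKM and 14.6 ± 1.61 FPKM in NC (SD, n = 2 each), a log2 fold change of -0.43 (SE 0.14, 95% interval -0.80 to -0.06) with an unadjusted p of 0.0302 and a limma adjusted p of 0.323, so it did not pass the test.

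Among the SMG9 coding transcripts a short one was the lower in si-YTHDF3. ENST00000602222, which is 650 bases long with 5 exons, had 1.93 FPKM and a listed 0 in si-YTHDF3 and 8.58 and 6.18 FPKM in NC. Both si-YTHDF3 libraries were below both NC libraries (log2 fold change -2.28, 95% interval -4.09 to -0.46, unadjusted p = 0.0265, limma adjusted p = 0.596). The 5510-base coding transcript ENST00000270066 went the other way with 7.17 and 8.31 FPKM in si-YTHDF3 and 6.70 and 6.17 FPKM in NC, both si-YTHDF3 libraries above both NC libraries (log2 fold change 0.23, limma adjusted p = 0.780). The remaining tested coding transcript, picked after its values were seen, had 0.768 and 2.34 FPKM in si-YTHDF3 and 0.417 and 0.751 FPKM in NC. It too was higher in both si-YTHDF3 libraries, so the lower coding sum of SMG9 rests on ENST00000602222. The retained-intron transcript ENST00000598860 had 4.01 and 5.90 FPKM in si-YTHDF3 and 4.04 and 4.81 FPKM in NC. The protein-coding share of SMG9 was 54.2% and 46.9% in si-YTHDF3 and 64.4% and 62.3% in NC.

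SMG5, the adaptor that brings decapping and deadenylation factors to UPF1 (chr1:156249224-156282825, minus strand, 5 transcripts), was steady. It had 44.1 and 45.9 FPKM in si-YTHDF3 and 45.0 and 40.3 FPKM in NC, with a log2 fold change of 0.08 (SE 0.13, 95% interval -0.24 to 0.40, limma adjusted p = 0.796). Its single coding transcript ENST00000361813 had 36.8 and 39.2 FPKM in si-YTHDF3 and 37.4 and 33.5 FPKM in NC. Of its retained-intron transcripts ENST00000473643 had 3.70 and 5.52 FPKM in si-YTHDF3 and 2.59 and 3.92 FPKM in NC, and ENST00000476954 had 3.28 and 0.743 FPKM in si-YTHDF3 and 4.35 and 2.28 FPKM in NC. The groups overlapped for each.

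SMG6, the endonuclease that cuts the mRNA near the early stop codon (chr17:2059839-2303771, minus strand, 19 transcripts), had 13.7 and 15.8 FPKM in si-YTHDF3 and 13.7 and 17.1 FPKM in NC. The groups overlapped, with a log2 fold change of -0.05 (SE 0.16, 95% interval -0.46 to 0.35, limma adjusted p = 0.908). SMG6 overlaps SRR and HIC1 on the opposite strand, which averaged 6.59 and 1.26 FPKM, and whether reads were counted by strand is not given in the sources used here, so reads of these genes may be mixed at its ends.

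The SMG6 transcript from the first start was even while the others were not. ENST00000263073 had 8.40 and 10.8 FPKM in si-YTHDF3 and 11.0 and 8.67 FPKM in NC. ENST00000354901, from the inner start without GC boxes, had a listed 0 in either si-YTHDF3 library and 0.000779 and 6.07 FPKM in NC, so only NC replicate 2 expressed it at a level above 1 FPKM. ENST00000573166, from the innermost of the 3 starts shown, had 3.47 and 0.167 FPKM in si-YTHDF3 and 0.648 and 0.349 FPKM in NC, so only si-YTHDF3 replicate 1 did. The coding sum of SMG6 was 9.03 and 11.6 FPKM in si-YTHDF3 and 12.0 and 16.3 FPKM in NC, with no overlap (log2 fold change -0.42, 95% interval -0.98 to 0.15, limma adjusted p = 0.442). Its protein-coding share was 65.7% and 73.5% in si-YTHDF3 and 87.7% and 95.4% in NC. Different transcripts in single libraries enter this share. The processed ENST00000573166 was high in si-YTHDF3 replicate 1 and the coding ENST00000354901 in NC replicate 2. The retained-intron ENST00000570874 was high in si-YTHDF3 replicate 2, at 3.13 FPKM.

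**Figure D3:**
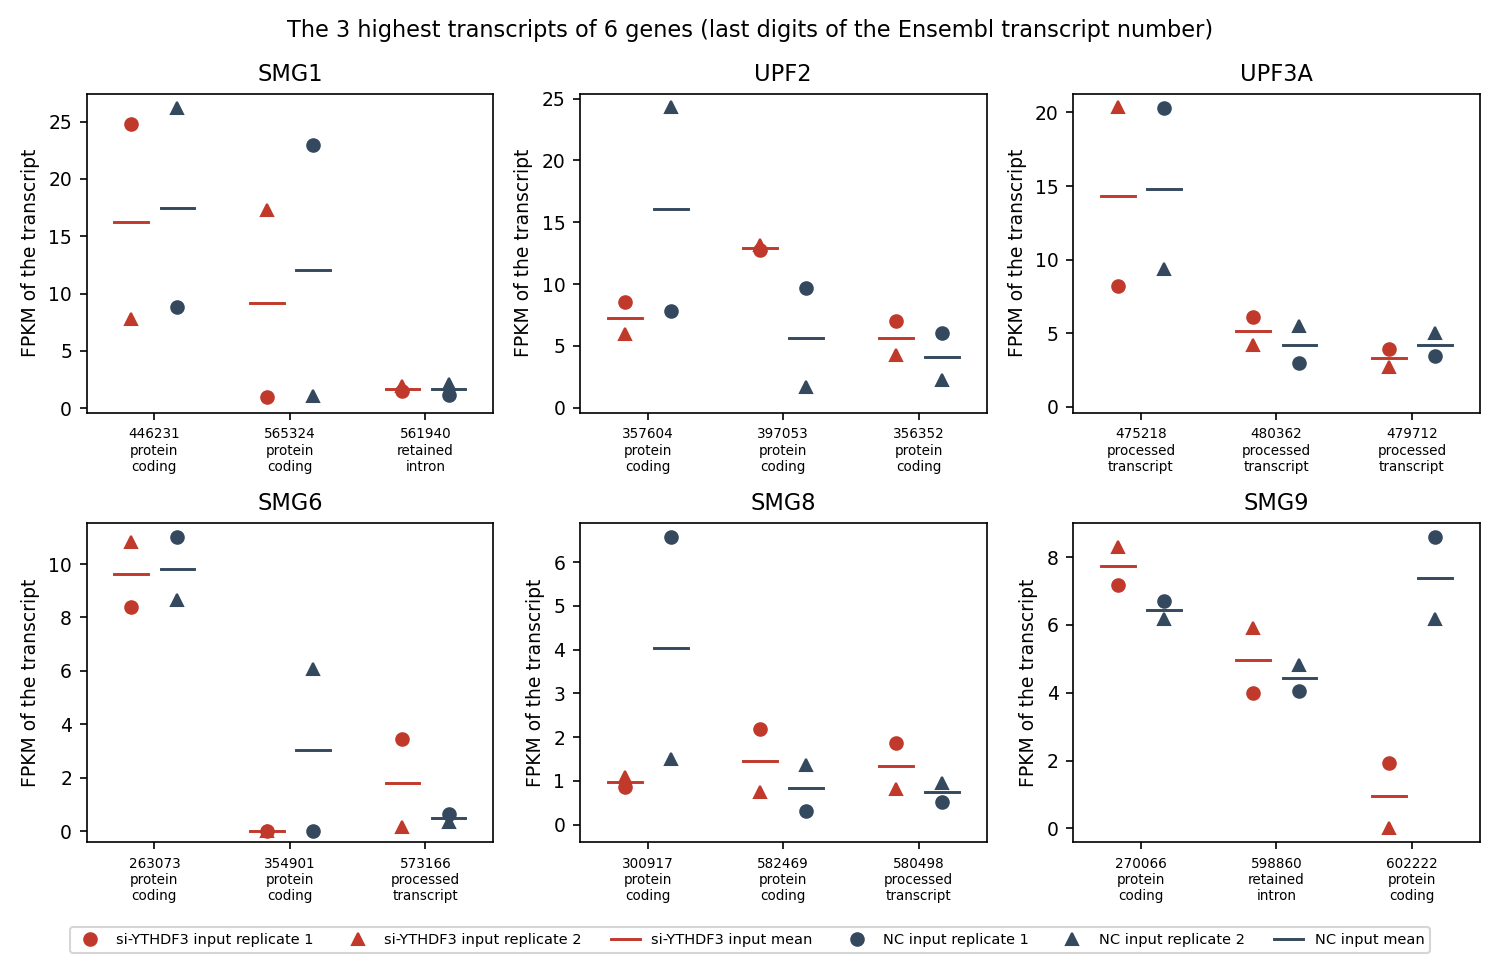
FPKM of the 3 highest transcripts of SMG1, UPF2, UPF3A, SMG6, SMG8 and SMG9 in the si-YTHDF3 input libraries (red) and the NC input libraries (dark blue), replicate 1 as circles and replicate 2 as triangles, with the group mean as a bar (n = 2 each). SMG1 ENST00000446231 and ENST00000565324 mirror each other across the 4 libraries, and UPF2 ENST00000357604 and ENST00000397053 do so in NC replicate 2, at 24.3 and 1.70 FPKM.

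Counted over all transcripts, the 91 entries were 43 protein-coding, 23 processed, 22 retained-intron and 3 NMD-type ones, and 38 reached a mean of 1 FPKM and were tested. Their median log2 fold change was 0.02, with 19 higher and 19 lower in si-YTHDF3. Of the 38, 0 had a limma adjusted p under 0.05, where 0.0% of all 38284 transcripts tested did. At an unadjusted p under 0.05 with at least a 2-fold change there was 1, SMG9 ENST00000602222, against 4.12% of all transcripts. The groups did not overlap for 10 of the 38, 6 with si-YTHDF3 above and 4 below, against 39.8% of all transcripts. The larger difference within a group exceeded that between the group means for 33 of the 38, against 73.7%. A difference of at least 4-fold between the libraries of a group, on FPKM + 1, was seen for 2 of the 38, SMG1 ENST00000565324 and SMG6 ENST00000354901, against 10.6% of all transcripts.

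Restricting each gene to its protein-coding transcripts left 0 of the 9 genes with a limma adjusted p under 0.05, where 0.0% of all 11333 coding sums tested passed. At an unadjusted p under 0.05 there was 1 of 9, SMG9, against 14.2% of all. The groups did not overlap for 4 of 9, which is near the 49.3% of all. In each of these 4, SMG1, SMG6, SMG9 and UPF3A, si-YTHDF3 was the lower group, and the share of all genes by direction was not computed. The groups of UPF3A were parted only by 5.13 FPKM in si-YTHDF3 replicate 1 and 5.14 FPKM in NC replicate 1. The lower sum of SMG9 rests on ENST00000602222. In SMG6, NC replicate 2 includes 6.07 FPKM of ENST00000354901, which was listed at 0 in si-YTHDF3. The coding sum of SMG1 was 28.4 and 28.1 FPKM in si-YTHDF3 and 35.6 and 29.6 FPKM in NC (log2 fold change -0.19, limma adjusted p = 0.550). That of SMG8, which overlapped, was 3.07 and 1.86 FPKM in si-YTHDF3 and 7.49 and 2.90 FPKM in NC, a log2 fold change of -0.76 (95% interval -1.92 to 0.41, limma adjusted p = 0.477). The coding sum of UPF1 was 24.9 and 29.6 FPKM in si-YTHDF3 and 27.5 and 26.3 FPKM in NC, with a log2 fold change of 0.01 (95% interval -0.35 to 0.38, limma adjusted p = 0.970).

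**Figure D4:**
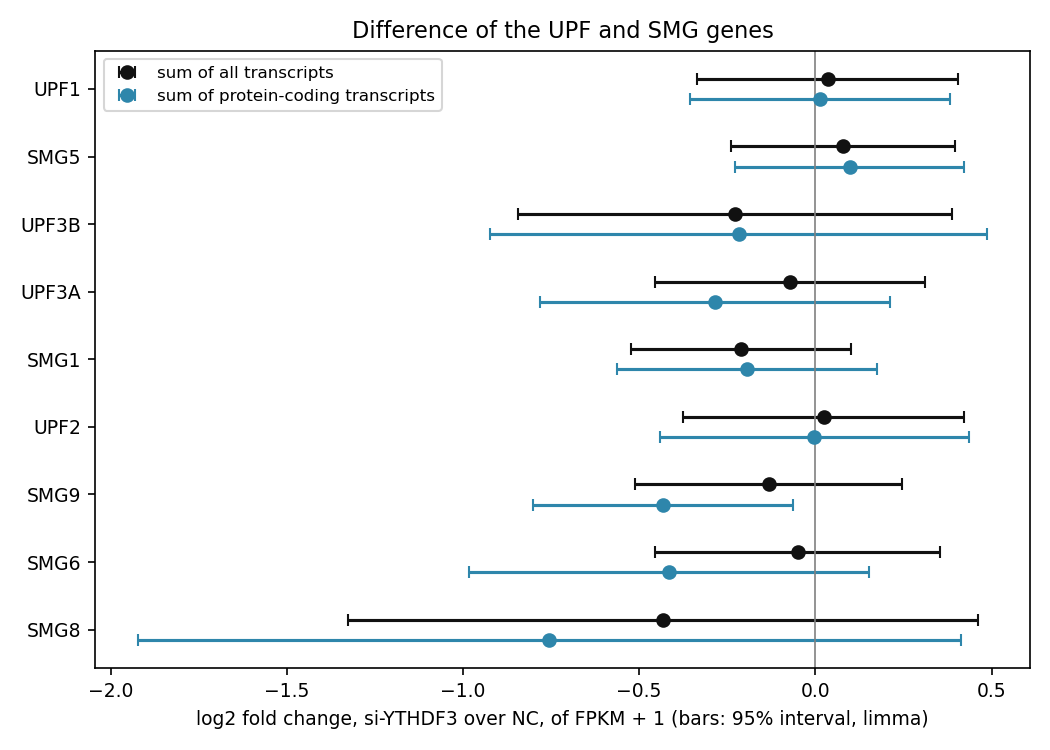
Log2 fold change, si-YTHDF3 over NC, of FPKM + 1 for the sum of all transcripts (black) and of the protein-coding transcripts (blue) of each gene, with limma's 95% interval as bars (n = 2 libraries a group). Every interval includes 0 except that of the SMG9 coding sum, which runs from -0.80 to -0.06 with an adjusted p of 0.323.

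NMD factors are themselves known to be held down by NMD. The NMD-type transcripts are those that Ensembl annotates as substrates of nonsense-mediated decay, and whether they follow that feedback was not tested. SMG1, SMG8 and SMG9 have 1 such transcript each, and all were under 1 FPKM in every library. That of SMG1 had 0.289 and 0.357 FPKM in si-YTHDF3 and 0.177 and 0.264 FPKM in NC. That of SMG8 had 0.891 and 0.239 FPKM in si-YTHDF3 and 0.108 and 0.482 FPKM in NC. That of SMG9 had 0.213 and 0.290 FPKM in si-YTHDF3 and 0.132 and 0.0755 FPKM in NC. Set over the coding sum of the same gene, both on FPKM + 1, the ratio did not overlap between the groups in 3 of 3 genes, against 39.2% of 4810 genes tested, and was higher in si-YTHDF3 in each. For SMG9 the log2 ratio differed by 0.61 (SE 0.19, 95% interval 0.07 to 1.15, unadjusted p = 0.0343, limma adjusted p = 0.763), the 1 of 3 at an unadjusted p under 0.05, against 6.42% of all. The NMD-type transcripts were low beside the added 1 FPKM, so most of each difference repeats that of the coding sum, whose log2 fold changes were -0.43 for SMG9, -0.76 for SMG8 and -0.19 for SMG1. None of the 3 ratios passed the adjusted test, 0 of 3 against 0.0% of all ratios, the others differing by 0.31 for SMG1 and 1.01 for SMG8 (limma adjusted p = 0.811 for both).

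Over all genes, NMD-type transcripts made up 4.72% and 4.59% of the FPKM in si-YTHDF3 and 4.67% and 4.63% in NC. The si-YTHDF3 libraries lay on both sides of the NC libraries, with means of 4.65% ± 0.0899 and 4.65% ± 0.0216 in NC (SD, n = 2 each) and a difference of 0.00155 percentage points (exact two-sided permutation test, p = 1). With 2 libraries against 2 the smallest p of this exact test is 0.333.

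The other parts of the pathway were set beside the 9 genes as lists, in which no gene had a limma adjusted p under 0.05. Their counts at an unadjusted p under 0.05 stand beside 14.8% of all genes. The groups did not overlap for 7 of 10 genes of the exon junction complex, 4 of 9 further NMD factors and 3 of 6 tested termination and cap-binding genes. Of all genes they did not for 49.0%. The exon junction complex marks spliced junctions, and 8 of its 10 genes were higher and 2 lower in si-YTHDF3, with a median log2 fold change of 0.15 and 1 at an unadjusted p under 0.05. That one was SAP18, with 46.0 and 48.1 FPKM in si-YTHDF3 and 36.0 and 38.0 FPKM in NC (log2 fold change 0.34, limma adjusted p = 0.310). RNPS1, a splicing activator bound to the complex, had 106 and 107 FPKM in si-YTHDF3 and 81.6 and 94.2 FPKM in NC. PNN, a nuclear speckle partner of both, had 208 and 187 FPKM in si-YTHDF3 and 220.0 and 265 FPKM in NC. SAP18 and RNPS1 were higher and PNN lower in both si-YTHDF3 libraries.

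Of 9 further NMD factors 6 were higher and 3 lower in si-YTHDF3, with a median of 0.10 and 0 at an unadjusted p under 0.05 in the limma fit. RUVBL2, an ATPase that works with SMG1, had 113 and 148 FPKM in si-YTHDF3 and 106 and 96.9 FPKM in NC. SEC13, a protein of vesicle coats and nuclear pores, had 22.7 and 28.3 FPKM in si-YTHDF3 and 22.0 and 18.2 FPKM in NC. Both were higher in both si-YTHDF3 libraries.

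Of 7 termination and cap-binding genes 6 were tested, with 5 higher, 1 lower and a median of 0.23. NCBP2, the small subunit of the nuclear cap-binding complex, was the 1 at an unadjusted p under 0.05, with 28.6 and 40.3 FPKM in si-YTHDF3 and 25.4 and 13.9 FPKM in NC (log2 fold change 0.81, limma adjusted p = 0.320). Its partner NCBP1 had 23.1 and 17.3 FPKM in si-YTHDF3 and 22.2 and 26.2 FPKM in NC, and the release factor GSPT1 had 92.7 and 69.6 FPKM in si-YTHDF3 and 41.6 and 93.0 FPKM in NC. The groups overlapped for both.

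Of 28 genes known as endogenous substrates of NMD, 12 were higher and 16 lower in si-YTHDF3, with a median of -0.05, 1 higher and 3 lower at an unadjusted p under 0.05. These are sums over all transcripts of a gene, so transcripts that NMD degrades were not separated from the others. The 4 of 28 at an unadjusted p under 0.05 are near the share of all genes, 14.8%, so the count is no result about the list. The groups did not overlap, in either direction, for 21 of the 28, against 49.0% of all genes. This difference was not tested. The stress-induced genes GADD45B and DDIT3 and the splicing factor TRA2B were the 3 lower ones. GADD45B had 4.42 and 5.63 FPKM in si-YTHDF3 and 9.61 and 19.4 FPKM in NC (log2 fold change -1.29, limma adjusted p = 0.225). TRA2B had 49.7 and 47.4 FPKM in si-YTHDF3 and 107 and 87.3 FPKM in NC (log2 fold change -0.98, limma adjusted p = 0.132). DDIT3 had 11.6 and 9.79 FPKM in si-YTHDF3 and 19.8 and 14.1 FPKM in NC (log2 fold change -0.60, limma adjusted p = 0.284). In all 3 the si-YTHDF3 libraries were the lower pair. The 1 higher gene, named after its value was seen, was the ribosomal protein gene RPL3 with 937 and 1121 FPKM in si-YTHDF3 and 787 and 826 FPKM in NC (log2 fold change 0.35, limma adjusted p = 0.310).

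**Figure D5:**
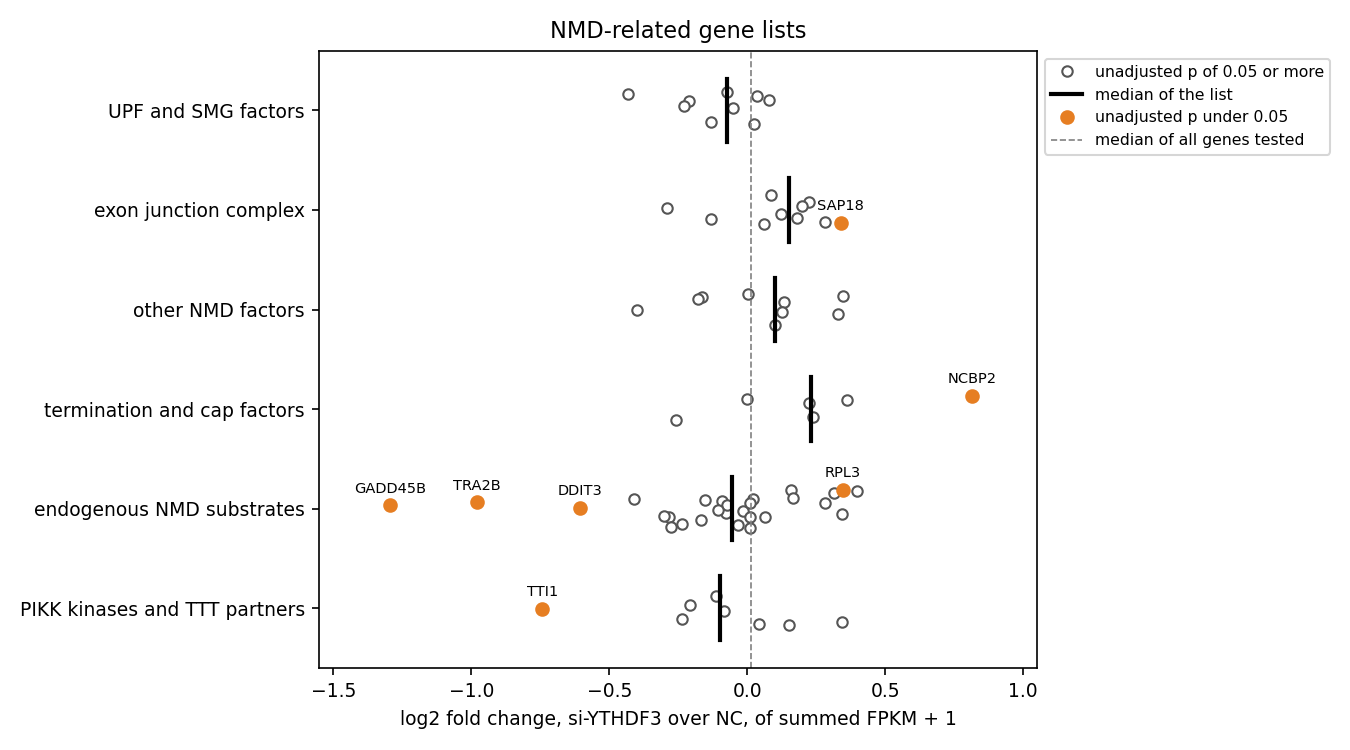
Log2 fold change of summed FPKM + 1, si-YTHDF3 over NC, for every tested gene (points) of the UPF and SMG factors and 5 other lists, with the median of each list as a black bar and the median of all genes tested, 0.01, as a dashed line. Filled orange points have an unadjusted p under 0.05 and are named, and there is none among the UPF and SMG factors.

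SMG8, the gene of the 9 with the largest fold change in size, was compared in pattern with the 61 tested genes of the other lists over the 4 libraries. The smallest root mean square differences of centred log2(FPKM + 1) were 0.25 for DDIT3, 0.29 for the asparagine synthetase gene ASNS and 0.32 for SNHG1, a host gene of small nucleolar RNAs. ASNS had 70.3 and 51.2 FPKM in si-YTHDF3 and 80.9 and 79.2 FPKM in NC, and SNHG1 had 78.4 and 59.7 FPKM in si-YTHDF3 and 84.3 and 84.6 FPKM in NC. In all of them, as in SMG8, si-YTHDF3 replicate 2 was the lowest library. The genes were chosen for nearness to SMG8 over these same libraries, so this likeness is no separate result. How many of all genes lie as near was not counted.

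The list of differential m6A peaks analysed here held 99 peaks, all on chromosome 1. SMG5 is the only one of the 9 genes on that chromosome, and 0 of the peaks were annotated to it. The list holds differential peaks only, so it does not measure whether SMG5 carries m6A. It gives no measurement of m6A for the other genes. Of the further NMD factors on chromosome 1, PNRC2 had a peak at chr1:23959932-23961823 and MOV10 one at chr1:112689105-112689561.

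The sign of small differences depended on single libraries. Without 1 of the 4 libraries the gene-level fold change of UPF1, UPF2, UPF3A, UPF3B, SMG5 and SMG6 changed sign for at least 1 choice of library, while SMG1 stayed between -0.28 and -0.15, SMG8 between -0.83 and -0.03 and SMG9 between -0.26 and -0.01. With transcripts weighted by length SMG9 turned to 0.20.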

How the data were processed

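Input RNA of HCT116 cells was measured in 2 si-YTHDF3 and 2 NC libraries, grouped by the sample titles. For every input library the authors deposited FPKM of Ensembl transcripts, normalised to transcript length and mapped fragments, on build GRCh38 per the submitters' processing notes. Which aligner, quantification program, strand setting and peak caller were used is not given in the sources used here. Columns with the authors' own fold, log2 fold change, p-value and q-value, and the peak values, were not used, and of the peak list only positions and gene names were read.

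Transcript FPKM were summed per gene, over all transcripts or over its protein-coding ones. Sums, single transcripts and the ratio of NMD-type to protein-coding sums were compared on the log2(FPKM + 1) scale by limma 3.58.1 in R 4.3.3 (lmFit, then eBayes with trend), with no covariate, over all features with a mean of at least 1 FPKM and with Benjamini-Hochberg adjustment at 0.05. For the ratio, the filter of 1 FPKM was set on the mean sum of all transcripts of a gene, over genes that hold both types. The NMD-type share per library was compared with an exact permutation test. The limma step was run on simulated normal values with variances drawn from limma's own fit. Such values meet the model by design, so the run cannot show how well it suits these FPKM. Figures were drawn with matplotlib 3.10.9 and counts made in Python 3.11.15.

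Transcripts were named if they were among the 3 highest of a gene or had an unadjusted p under 0.05 with a 2-fold change, and list genes if among the 3 largest absolute log2 fold changes of their list, with the 3 genes nearest in pattern to the member of largest fold change. A gene that this rule names is not reported here. The genes and lists were chosen with earlier results of these data known. Alternatives were a pseudocount of 0.1, no filter and a filter at 5 FPKM, upper-quartile and TPM scaling, length-weighted sums, no mean trend, the replicate number as a block, and leaving out each library. Deviations of libraries with the same replicate number had correlations of -0.11 over genes and -0.01 over transcripts, so the numbers were not taken as pairs. Sequences are from RefSeq, and no protein sequence or genome was used.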

Additional observations from a re-analysis of the deposited data

How the results depend on the processing

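No call was made for any of the 9 genes, their coding sums, their ratios or their named transcripts under any alternative run. The lowest adjusted p of limma was 0.316 for gene sums, 0.272 for coding sums, 0.528 for ratios and 0.339 for transcripts. Of 81 gene-level values from alternatives that keep all libraries, 79 kept their sign, the exceptions being UPF2 at -0.0055 with TPM scaling and SMG9 at 0.20 with length-weighted sums. Of 44 such coding sums 43 did, UPF1 turning to -0.016 with TPM scaling, and all 15 ratios and 120 transcript values did. The difference in NMD-type share was -0.00972 percentage points with length-weighted sums. Over all genes, 4 passed the adjusted test, against 0 with no filter, 15 with a filter at 5 FPKM (13 higher and 2 lower), 24 with length-weighted sums (17 higher and 7 lower) and 132 with the replicate block (81 higher and 51 lower). With the replicate block YTHDF3 was at -2.27 with an adjusted p of 0.00031, and GADD45B and TRA2B also passed, at 0.00938 and 0.0347. With the numbers crossed, an alternative chosen after seeing the data, 0 genes passed. The count was 0 without either si-YTHDF3 library, 67 without NC replicate 1 and 56 without NC replicate 2, so that it ranged from 0 to 67. YTHDF3 lay at -2.80 to -1.74 when 1 library was left out. The single member transcript at an unadjusted p under 0.05 with 2-fold became 0 with a pseudocount of 0.1, 0 with a filter at 5 FPKM and 0 with crossed numbers, and 1 to 4 when 1 library was left out (3 without si-YTHDF3 replicate 1, 2 without si-YTHDF3 replicate 2, 4 without NC replicate 1). The causes were not tested.

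Sign changes on leaving out 1 library were as follows, as the lowest to highest log2 fold change. Gene sums ran at UPF1 -0.10 to 0.17, UPF2 -0.11 to 0.16, UPF3A -0.20 to 0.059, UPF3B -0.55 to 0.092, SMG5 -0.00028 to 0.16, SMG6 -0.20 to 0.10, GSPT1 -0.21 to 0.93. Coding sums ran at UPF1 -0.11 to 0.14, UPF2 -0.14 to 0.13, UPF3B -0.53 to 0.092. Transcripts ran, by gene, at SMG1 ENST00000446231 -0.90 to 0.66, SMG1 ENST00000561940 -0.22 to 0.32, SMG1 ENST00000565324 -1.98 to 1.55, SMG5 ENST00000476954 -1.27 to 0.030, SMG6 ENST00000263073 -0.20 to 0.14, SMG6 ENST00000573166 -0.35 to 1.58, SMG8 ENST00000582469 -0.018 to 0.86, SMG9 ENST00000598860 -0.11 to 0.35, UPF1 ENST00000262803 -0.024 to 0.53, UPF1 ENST00000599848 -0.48 to 0.15, UPF1 ENST00000601689 -0.11 to 0.23, UPF2 ENST00000356352 -0.12 to 1.01, UPF3A ENST00000475218 -0.69 to 0.53, UPF3A ENST00000480362 -0.090 to 0.62, UPF3B ENST00000345865 -0.66 to 0.084. Every other fold change recomputed kept its sign when a library was left out. With 2 libraries a group and no read depth, small differences of low transcripts cannot be measured here.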

Other observations

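SMG1 belongs to the PIKK kinases, large relatives of lipid kinases that depend on the TTT chaperone complex (TELO2, TTI1 and TTI2) for their folding. Of the 8 PIKK and TTT genes 3 were higher and 5 lower in si-YTHDF3, with a median log2 fold change of -0.10 and 0 calls at a limma adjusted p under 0.05. The groups did not overlap for 3 of the 8, against 49.0% of all genes. At an unadjusted p under 0.05 there was 1 of 8, near the 14.8% of all genes tested. This was TTI1, with 8.20 and 9.10 FPKM in si-YTHDF3 and 15.1 and 15.2 FPKM in NC, a log2 fold change of -0.74 (95% interval -1.07 to -0.41, limma adjusted p = 0.162). Both si-YTHDF3 libraries were far below both NC libraries, and libraries of a group were close. TTI2 had 8.61 and 10.2 FPKM in si-YTHDF3 and 6.16 and 8.33 FPKM in NC (limma adjusted p = 0.430), higher in both si-YTHDF3 libraries. The DNA damage kinase ATR had 8.45 and 7.15 FPKM in si-YTHDF3 and 7.89 and 11.0 FPKM in NC (limma adjusted p = 0.584), with overlapping groups.

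Some transcripts of the UPF and SMG genes had too low a mean to be tested and still reached 1 FPKM in a single library. The transcripts given here were picked from among these after their values were seen, and others of them are not given. UPF3B ENST00000619445 had a listed 0 in either si-YTHDF3 library and 2.32 FPKM and a listed 0 in NC. The retained-intron SMG6 ENST00000570874 had 0.569 and 3.13 FPKM in si-YTHDF3 and 0.164 and 0.00201 FPKM in NC.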
